A study of Mus musculus with 18 samples.

Results

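Dbp, Tef and Hlf, the 3 PAR bZIP transcription factors, and Nfil3, a related bZIP repressor, were followed in lung RNA of mice given a mixture of 4 polycyclic aromatic hydrocarbons (PAHs). All probes whose RefSeq accession maps to these 4 genes were taken, which covered 4 of the 20660 named genes with 5 of the 55681 probes tested: 2 for Dbp and 1 each for Tef, Hlf and Nfil3. At the high dose Dbp, Tef and Hlf were higher than in vehicle mice and Nfil3 was lower. At the low dose Dbp, Tef and Nfil3 already passed the limits given below in the same directions, for Tef depending on single mice. Hlf was higher by log2 0.80 there without passing them.

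Male MutaMouse, a transgenic strain used for mutation assays, aged about 12 weeks and housed singly under a light/dark cycle of 12 hours, were gavaged daily for 28 days with the 4PAH-Mix in olive oil. The mixture holds benzo[a]pyrene (BaP), benz[a]anthracene, benzo[b]fluoranthene and chrysene. Vehicle mice (n = 5) had olive oil alone. Counted as BaP equivalents per kg of body weight, the low-dose mice (n = 4) had 12.5 mg a day, the medium-dose mice (n = 5) 25 mg and the high-dose mice (n = 4) 50 mg. Lungs were taken 72 hours after the last gavage, and the time of day of collection is not given in the sources used here. RNA came from random sections of whole lung, so a change per cell and a change in the share of a cell type cannot be told apart. Each mouse had 1 two-colour Agilent array, with lung RNA in Cy5 and Universal Mouse Reference RNA, from 11 mouse cell lines, in Cy3. Values are log2 ratios of lung to reference RNA, so levels can be compared between mice for a probe but not between genes. A probe was called where limma's Benjamini-Hochberg adjusted p was 0.05 or less and the fold change at least 1.5.

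The PAR bZIP factors are output genes of the circadian clock. The activators Clock and Arntl (Bmal1) drive Dbp transcription from E-box elements, while the Per and Cry proteins oppose them. Dbp, Tef and Hlf bind D-box elements and activate genes there, among them genes of drug and vitamin metabolism in liver, and Nfil3 (E4bp4) binds the same elements and represses. Nfil3 is itself repressed by the nuclear receptors Nr1d1 and Nr1d2, and it is also required for development of natural killer cells.

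The sequences before the transcription starts of the 4 genes, shown to give the letters next to each start that the motifs below were searched in, were taken from RefSeq (GRCm38.p6, 250 bases up to the start, gene strand). All 4 genes had a window and Tef had 2. The Nfil3 and second Tef windows lie inside the annotated span of their gene, and the Dbp window reaches into it. For these 3 windows the start is therefore not the outermost start of the gene. The motifs were searched on both strands: the E-box CACGTG, the D-box TTANGTAA, the nuclear receptor element AGGTCA and the core of the Ah receptor's element, GCGTG. Capitals mark the matches, and CACGC and TGACCT are matches on the other strand.
Dbp (chr7:45704997-45705246, plus strand): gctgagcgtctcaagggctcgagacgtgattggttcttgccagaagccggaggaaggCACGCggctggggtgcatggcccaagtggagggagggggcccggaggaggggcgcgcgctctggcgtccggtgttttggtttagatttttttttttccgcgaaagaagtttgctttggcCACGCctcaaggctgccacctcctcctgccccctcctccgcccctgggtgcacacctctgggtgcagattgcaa
Tef first start (chr15:81802423-81802672, plus strand): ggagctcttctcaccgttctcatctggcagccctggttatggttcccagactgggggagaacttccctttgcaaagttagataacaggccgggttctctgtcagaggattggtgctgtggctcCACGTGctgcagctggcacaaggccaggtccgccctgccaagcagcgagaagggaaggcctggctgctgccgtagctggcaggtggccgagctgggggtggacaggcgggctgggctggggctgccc
Tef second start (chr15:81811164-81811413, plus strand): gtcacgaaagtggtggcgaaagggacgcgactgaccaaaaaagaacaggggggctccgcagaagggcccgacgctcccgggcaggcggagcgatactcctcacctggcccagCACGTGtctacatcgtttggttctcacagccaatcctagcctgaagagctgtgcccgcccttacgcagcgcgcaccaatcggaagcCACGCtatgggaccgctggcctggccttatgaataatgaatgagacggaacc
Hlf (chr11:90390918-90391167, minus strand): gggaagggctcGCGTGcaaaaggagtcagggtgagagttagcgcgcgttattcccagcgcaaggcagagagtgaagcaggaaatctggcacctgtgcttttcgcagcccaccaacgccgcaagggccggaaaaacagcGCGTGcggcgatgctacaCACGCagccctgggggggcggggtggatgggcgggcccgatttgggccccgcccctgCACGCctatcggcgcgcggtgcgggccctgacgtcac
Nfil3 (chr13:52981040-52981289, minus strand): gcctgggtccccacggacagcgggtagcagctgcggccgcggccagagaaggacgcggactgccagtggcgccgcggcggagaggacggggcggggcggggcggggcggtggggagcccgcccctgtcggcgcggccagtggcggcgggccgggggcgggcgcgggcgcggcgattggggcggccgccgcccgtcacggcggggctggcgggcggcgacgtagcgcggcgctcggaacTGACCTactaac

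Both Tef windows held the E-box, 127 and 138 bases before their starts, a motif found in 6.021% of 32851 mouse promoter windows of this length. The Dbp, Hlf and Nfil3 windows held no E-box. The Nfil3 window held AGGTCA 12 bases before the start, found in 14.02% of windows. The GCGTG core, found in 28.16% of windows, matched 4 times for Hlf, 2 times for Dbp and 1 time for the second Tef start. G and C made up 67.2%, 62.4% and 60.4% of these windows, against a median of 52.4% over all windows. The Nfil3 and first Tef windows, with 81.6% and 63.6%, held no GCGTG. No window held TTANGTAA, which 2.061% of windows had. A match describes these letters only.

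Each probe of the 4 genes was well above background in Cy5 on all 18 arrays and saturated on none. Cy5 intensity of the brighter Dbp probe spanned 4031 to 56260, a 14.0-fold range, whereas the Cy3 intensity of the same spot spanned 7333 to 10110.5, a 1.38-fold range. For Tef the Cy5 range was 4.75-fold and the Cy3 range 1.31-fold, and for Nfil3 they were 3.08-fold and 1.38-fold. For Hlf the Cy5 intensity lay between 301 and 1377, a 4.57-fold range, and the Cy3 range was 1.80-fold.

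Over all probes, 51.5% to 61.1% were well above background in Cy5, each of the 3 slides held all 4 groups, and the array's column on its slide followed the dose, so that column and dose cannot be told apart. Cdkn1a, a p53 target, and Cyp1b1, an Ah receptor target, were called higher at each dose. Cyp1a1, another Ah receptor target, was called at none, with log2 -0.32, -0.44 and 1.07 (limma adjusted p = 0.0773 at the high dose). All doses were compared with the same 5 vehicle mice, so the comparisons are not independent of each other.

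Dbp is a clock output factor whose own transcription is driven by the Clock and Arntl activators. In vehicle mice 1 to 5 its log2 ratio was -0.70, 0.88, -0.17, 0.74 and 0.47. Low-dose mice 6, 7, 9 and 10 had 1.87, 1.44, 2.62 and 2.28. Medium-dose mice 11 to 15 had 1.85, 2.60, 2.76, 2.34 and 2.54, and high-dose mice 16, 17, 18 and 20 had 2.44, 2.67, 2.05 and 2.68. Each exposed mouse was above each vehicle mouse, and the vehicle group was the most spread, with an SD of 0.67 around a mean of 0.24. The means were 2.05 ± 0.51 (SD, n = 4), 2.42 ± 0.35 (SD, n = 5) and 2.46 ± 0.29 (SD, n = 4) at the low, medium and high dose.

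Against vehicle, Dbp rose 3.50-fold at the low dose (log2 1.81, SE 0.27, limma adjusted p = 0.00393). The rise was 4.51-fold in the medium-dose group (log2 2.17, SE 0.26, limma adjusted p = 5.85e-05) and 4.65-fold in the high-dose group (log2 2.22, SE 0.27, limma adjusted p = 4.62e-05). Among all 55681 probes these were the rises of rank 5, 5 and 6. The second Dbp probe rose by log2 1.88, 2.27 and 2.41 and was called at each dose. Within the 3 slides, the Dbp difference from vehicle from low to high dose ran over 1.56 to 2.34, 2.07 to 2.26 and 1.77 to 2.47. A slide held only 1 or 2 mice of a group, and slide 3 held 1 of each, which limits all differences within slides given here. The low-dose call was lost with median centring in place of loess, with log2 1.83 and a limma adjusted p of 0.519.

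**Figure D1:**
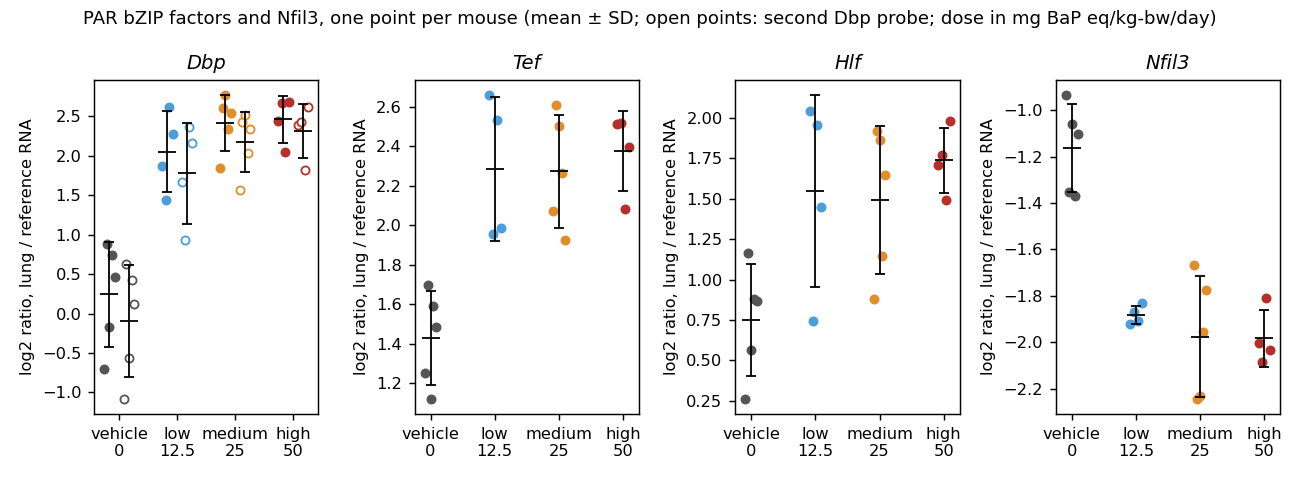
Log2 ratio of lung to reference RNA for each factor (vertical axes) in each mouse by dose group (horizontal axes, mg BaP equivalents/kg-bw/day), with bars for the group mean ± SD and open points for the second Dbp probe. Exposed mice lie above all vehicle mice for Dbp and Tef and below them for Nfil3, while for Hlf the low and medium groups overlap the vehicle group.

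Tef, which binds the same D-box elements as Dbp, had log2 ratios of 1.25, 1.70, 1.12, 1.59 and 1.49 in vehicle mice 1 to 5. The low-dose mice 6, 7, 9 and 10 had 2.66, 1.96, 2.54 and 1.99. Medium-dose mice 11 to 15 had 2.07, 2.61, 2.50, 2.26 and 1.93, and high-dose mice 16, 17, 18 and 20 had 2.51, 2.52, 2.08 and 2.40. No exposed mouse overlapped the vehicle mice. Mean levels were 1.43 ± 0.24 (SD, n = 5) for vehicle and 2.29 ± 0.37 (SD, n = 4), 2.27 ± 0.29 (SD, n = 5) and 2.38 ± 0.20 (SD, n = 4) for the 3 doses.

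Tef rose 1.81-fold at the low dose (log2 0.86, SE 0.16, limma adjusted p = 0.0307), 1.80-fold at the medium dose (log2 0.84, SE 0.15, limma adjusted p = 0.0029) and 1.93-fold at the high dose (log2 0.95, SE 0.16, limma adjusted p = 0.0013). The low-dose call depended on single mice. It was lost without vehicle mouse 1 (log2 0.81), 3 (0.78) or 5 (0.87) and without low-dose mouse 6 (0.73) or 9 (0.77), with limma adjusted p from 0.0577 to 0.137. It was also lost with the scanner software's ratio (log2 0.93), with median centring (0.93) and in a fit of only the 2 groups (0.86), and median centring ended the medium-dose call (0.99). Within slides the Tef difference was 0.50 to 1.18 in the low, 0.44 to 1.03 in the medium and 0.73 to 1.04 in the high group.

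Hlf, the factor with the least separated groups, had log2 ratios of 0.26, 1.17, 0.56, 0.88 and 0.87 in vehicle mice 1 to 5. Low-dose mice 6, 7, 9 and 10 had 2.04, 0.75, 1.95 and 1.45, and medium-dose mice 11 to 15 had 0.88, 1.92, 1.86, 1.15 and 1.65. High-dose mice 16, 17, 18 and 20 had 1.71, 1.77, 1.49 and 1.98. The high-dose mice lay above all vehicle mice, but low-dose mouse 7 and medium-dose mice 11 and 14 lay within the vehicle range. The means were 0.75 ± 0.35 (SD, n = 5), 1.55 ± 0.60 (SD, n = 4), 1.49 ± 0.46 (SD, n = 5) and 1.74 ± 0.20 (SD, n = 4) from vehicle to high dose.

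Hlf rose 1.99-fold at the high dose (log2 0.99, SE 0.24, limma adjusted p = 0.0186). Low-dose mice differed by log2 0.80 (SE 0.24, limma adjusted p = 0.267) and medium-dose mice by 0.74 (SE 0.22, limma adjusted p = 0.0725), neither of them called. For the medium dose the two-sided exact permutation test gave p = 0.0476, and for the low dose p = 0.0635. Leaving out vehicle mouse 1 (log2 0.87) or high-dose mouse 16 (1.00), 17 (0.98) or 20 (0.91) ended the high-dose call, with limma adjusted p from 0.0526 to 0.0599. The medium dose was called without medium-dose mouse 11 (log2 0.90, limma adjusted p = 0.0359), and also without low-dose mouse 7, which enters that fit through the shared variance (log2 0.74, limma adjusted p = 0.0328). The high-dose call was also lost with the scanner software's ratio (log2 1.14) and with median centring (1.03). Within slides the Hlf difference was 0.58 to 1.23 in the low, 0.69 to 0.78 in the medium and 0.77 to 1.11 in the high group.

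Nfil3, the repressor of the group, moved the other way. Its log2 ratio was -0.93, -1.35, -1.06, -1.37 and -1.10 in vehicle mice 1 to 5. Low-dose mice 6, 7, 9 and 10 had -1.92, -1.87, -1.91 and -1.83, the tightest group of any factor with an SD of 0.04. Medium-dose mice 11 to 15 had -1.67, -2.25, -2.23, -1.96 and -1.78, and high-dose mice 16, 17, 18 and 20 had -2.00, -2.09, -1.81 and -2.03. Each exposed mouse was below each vehicle mouse. Means were -1.16 ± 0.19 (SD, n = 5) for vehicle, then -1.88 ± 0.04 (SD, n = 4), -1.98 ± 0.26 (SD, n = 5) and -1.98 ± 0.12 (SD, n = 4).

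Nfil3 was 1.65-fold lower at the low dose (log2 -0.72, SE 0.11, limma adjusted p = 0.00719), 1.76-fold lower at the medium dose (log2 -0.81, SE 0.11, limma adjusted p = 0.000175) and 1.77-fold lower at the high dose (log2 -0.82, SE 0.11, limma adjusted p = 0.000177). The differences within slides were -0.69 to -0.75 for low-dose, -0.68 to -0.88 for medium-dose and -0.59 to -0.93 for high-dose mice. With median centring in place of loess they were -0.57, -0.64 and -0.57 and not called. The SD of Nfil3 within groups was 0.18 after loess and 0.37 after median centring.

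Counted together, 3 of the 4 genes were called at the low dose, where 0.0898% of all probes were called, 3 at the medium dose, against 0.726%, and 4 at the high dose, against 1.20%. By direction, 0.0647%, 0.278% and 0.399% of all probes were called higher at the 3 doses and 0.0251%, 0.447% and 0.805% lower. Dbp and Tef were called higher, and Nfil3 lower, at all 3 doses. Of all probes, 0.0647% were called higher and 0.0233% lower at all 3. No overlap with vehicle was seen for Dbp, Tef and Nfil3 at each dose and for Hlf at the high dose. At the high dose 3.78% of all probes had each mouse above all vehicle mice and 4.34% had each below. The shares were 1.36% and 1.45% at the low dose, and 2.31% and 2.05% at the medium dose. Where groups did not overlap, the two-sided exact permutation p was 0.0159 at the low and high dose and 0.00794 at the medium dose, the smallest these group sizes allow. These tests were 30 in all, for 5 probes in 6 comparisons.

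**Figure D2:**
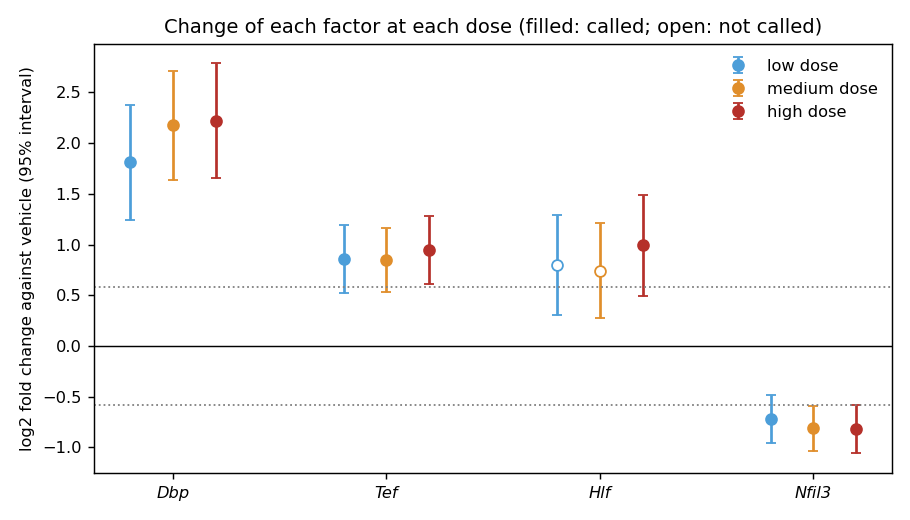
Log2 fold change of each factor against vehicle (vertical axis) at the low, medium and high dose, with limma's 95% interval, filled where called and open where not, and dotted lines at a fold change of 1.5 in either direction. For each factor the intervals of the 3 doses overlap, and only Hlf at the low and medium dose was not called.

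Whether the factors changed further with dose was asked by comparing the dose groups with each other. No factor was called in any of these comparisons, in which 0.0449% of all probes were called between the high and the low dose and 0 between neighbouring doses. At an unadjusted p under 0.05, limma gave 3738 of the 55681 probes between the high and low dose. It gave 2764 between the medium and low dose and 2084 between the high and medium dose. None of the 4 factors was among them in any of these comparisons. From the low to the high dose Dbp differed by log2 0.41 (95% interval -0.19 to 1.01) and Tef by 0.09 (-0.26 to 0.45). Over the same step Hlf differed by 0.19 (-0.33 to 0.71) and Nfil3 by -0.10 (-0.35 to 0.15). Low-dose mice showed 81.5% of the high-dose log2 change for Dbp, 90.2% for Tef, 80.7% for Hlf and 87.8% for Nfil3. The sign of these small differences depended on single mice. Without low-dose mouse 7 the high against low difference was -0.016 for Tef and -0.076 for Hlf, and without medium-dose mouse 11 the high against medium difference was -0.098 for Dbp and 0.069 for Nfil3, against 0.044 and -0.0084 with all mice.

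The 4 factors varied together from mouse to mouse. Dbp correlated with Tef at r = 0.90, with Hlf at 0.86 and with Nfil3 at -0.95 over the 18 arrays, which hold the dose difference and share slides and reference RNA. With the group means removed, r was 0.60 for Dbp with Tef, 0.79 with Hlf and -0.70 with Nfil3, 0.76 for Tef with Hlf, -0.76 for Tef with Nfil3 and -0.65 for Hlf with Nfil3. Other genes reached larger values on this measure, such as Zer1 (0.89) and Cmc2 (-0.90) with Dbp. How common values of this size are among all genes was not tested. High-dose mouse 18 had the lowest Dbp, Tef and Hlf and the highest Nfil3 of its group. In the vehicle group, mouse 1 had the lowest Dbp and Hlf and the highest Nfil3. Medium-dose mouse 11 had the lowest Dbp and Hlf and the highest Nfil3 of its group, and low-dose mouse 7 the lowest Dbp, Tef and Hlf. The extremes did not always fall together: the lowest Tef was in vehicle mouse 3 and medium-dose mouse 15. The highest Nfil3 of the low-dose group was in mouse 10.

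**Figure D3:**
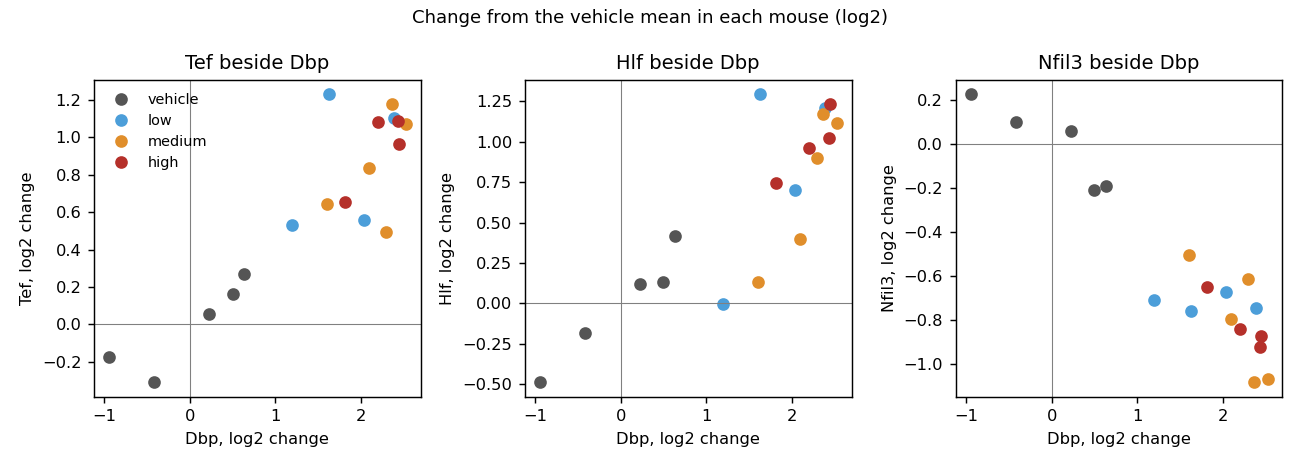
Change from the vehicle mean (log2) of Tef, Hlf and Nfil3 (vertical axes) against that of Dbp (horizontal axes), 1 point per mouse coloured by dose group. Mice with higher Dbp have higher Tef and Hlf and lower Nfil3, with r = 0.90, 0.86 and -0.95 over 18 mice.

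The genes whose pattern was most like that of each factor were ranked by r over the 18 arrays among 13448 genes well above background on each array. For Dbp the highest was Nr1d2, a heme-binding repressor of the clock (r = 0.98), followed by Zfp346 (0.94), Per3 (0.93), Tspan4 (0.93) and Dmac2 (0.93). The lowest were Arntl (-0.95), Nfil3 (-0.95), Septin11 (-0.92), Tln1 (-0.92) and Gm14325 (-0.91). Nr1d2 (0.94) and Per3 (0.93) also led for Tef, before Zfp503, Etl4 and Fam76b, and its lowest were Nfil3 (-0.94), Spon2, Basp1, Tmem171 and Arntl. Hlf had Sord (0.90), Apoa2, Coq8a, Per3 and Tef as its highest and Dtx4 (-0.90), Spon2, Adm, Arntl and Batf as its lowest. For Nfil3 the highest were Arntl (0.93), Tmem171 (0.91), Ahcyl2, Zfp26 and Basp1, and the lowest Nr1d2 (-0.96), Dbp, Tef, Apoa2 and Per3. Arntl stood among the extreme genes of all 4 factors, and so did Per3.

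Among the clock repressors, all 10 listed genes were measured, and 2, 5 and 4 were called higher from low to high dose, with none lower. Median centring left 2 called at the high dose. Of all named genes, 0.116%, 0.503% and 0.736% were called higher at these doses. The list was chosen with earlier results of these data known, so its counts describe and do not test. The median change of the list was log2 0.43, 0.62 and 0.53, against 0.01, 0.02 and 0.02 over all named genes. At the high dose the period gene Per2 rose by log2 1.25 (SE 0.16, limma adjusted p = 7.26e-05), Nr1d2 by 1.14 (SE 0.14, limma adjusted p = 4.2e-05), Per3 by 1.03 (SE 0.14, limma adjusted p = 0.000143) and Nr1d1 by 0.69 (SE 0.19, limma adjusted p = 0.0425). Per1 was called at the medium dose (log2 0.84) and not at the high dose (0.48, limma adjusted p = 0.111). The cryptochrome gene Cry1 was not well above background on any array, and Cry2 had log2 0.31 at the high dose, below the fold limit.

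Among the clock activators, Arntl was called lower at each dose, by log2 -1.04, -1.37 and -1.59 (limma adjusted p = 1.35e-05 at the high dose). Its partner Clock had -0.42 at the high dose (limma adjusted p = 0.103) and Npas2, which can take the place of Clock, -0.42 (limma adjusted p = 0.0656). The Npas2 probe was well above background on only 7 of the 18 arrays. Of all named genes, 0.0436%, 0.431% and 0.774% were called lower at the 3 doses.

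Of 8 genes known from liver as targets of the PAR bZIP factors, Cyp2a5 had no probe matched by name and 7 were measured. By limma 0 of the 7 were called at any dose, and 1 had an unadjusted p under 0.05 at the high dose. Over all 55681 probes, limma gave 8755 an unadjusted p under 0.05 at the high dose. As 0.736% of all named genes were called higher and 0.774% lower at that dose, a list of this size gives no reading from a count of 0. Their median was log2 0.13 at the high dose. The largest was Pdxk, which makes the active form of vitamin B6, with 0.36 (SE 0.11, limma adjusted p = 0.0858). The electron donor of cytochromes P450, Por, had 0.30 (SE 0.14) and Alas1, which starts heme synthesis, 0.20 (SE 0.16). The median of 0.13 is the value of Cyp7a1, which like Upp2 was not well above background on any array. Of the 6 C/EBP family genes, bZIP factors of another subfamily, limma called 0, with changes from -0.32 to 0.38 at the high dose and 3 at an unadjusted p under 0.05. The scanner software's ratio called 1 of them higher. Of 6 glucocorticoid-responsive genes limma called 0, with changes from -0.49 to 0.19 and 0 at an unadjusted p under 0.05. Counts of 0 in lists of 6 genes give no reading either.

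**Figure D4:**
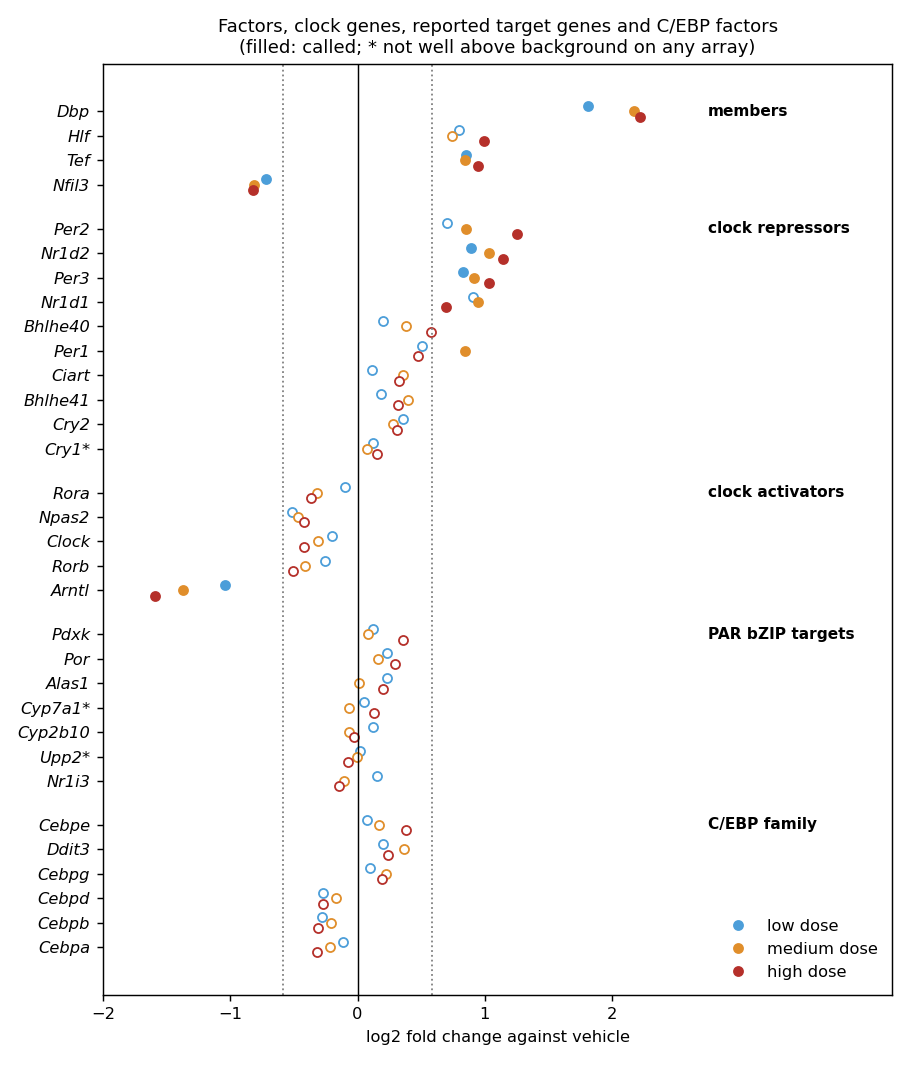
Log2 fold change against vehicle (horizontal axis) at the 3 doses for the factors, the clock repressors and activators, the liver targets of the PAR bZIP factors and the C/EBP family, filled where called, with dotted lines at a fold change of 1.5. Per2, Nr1d2 and Per3 lie to the right with Dbp, Hlf and Tef, Arntl lies to the left with Nfil3, and the target genes and the C/EBP family show no filled point.

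Natural killer genes are given because Nfil3 is needed for that lineage. Of 9 measured genes, 1 was called lower, the protease gene Gzma at the high dose (log2 -2.25, SE 0.41, limma adjusted p = 0.00208). Of all named genes, 0.774% were called lower at that dose. The list's median was -0.44, and limma gave 8 of the 9 an unadjusted p under 0.05, against 8755 of all 55681 probes. Only Klrk1 had a positive change (log2 0.006), and it was not well above background on any array. With median centring 0 of the 9 were called. The mean level of 4 natural killer markers, as log2 difference from the vehicle mean, ran from -0.67 to 0.39 in vehicle mice and from -1.10 to -0.56 in high-dose mice. Gzma weighs most in this mean, as Ncr1, Klrb1c and Klrd1 changed by -0.32, -0.42 and -0.45 at the high dose. Ncr1 and Klrb1c were well above background on 14 and 13 of the 18 arrays. Some markers of other cell types were also called. Of 3 fibroblast markers, 2 (Col1a1 and Dcn) were called lower at the medium and high dose, with a mean level between -0.18 and 0.21 in vehicle and between -0.88 and -0.21 in high-dose mice. Of 4 B cell markers, 2 (Cd79b and Ms4a1) were called higher at the medium dose but 0 of 4 in the high-dose group, with a mean level of -0.54 to 0.41 in vehicle and 0.36 to 0.63 in high-dose mice. Of 3 endothelial markers only Pecam1 was called higher, at the medium and high dose. No alveolar type 1 or type 2, club, ciliated, T cell, alveolar macrophage or neutrophil marker was called at any dose. The part of these cell types in the changes of the 4 factors was not tested.

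**Figure D5:**
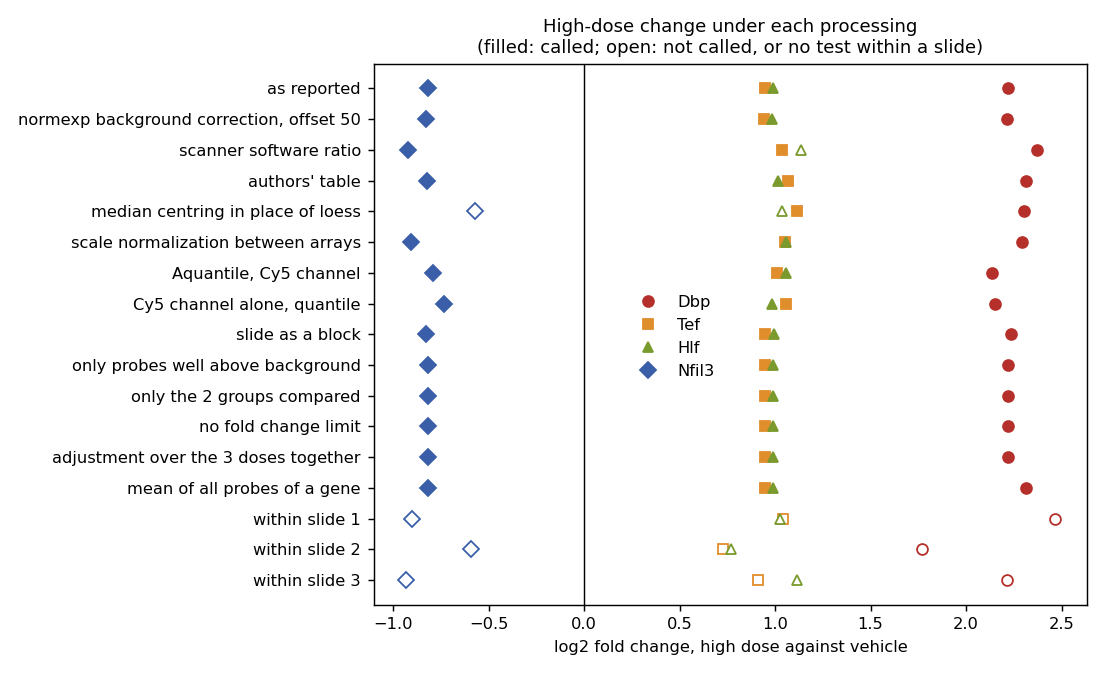
Log2 fold change at the high dose against vehicle (horizontal axis) for the 4 factors under each processing of the arrays (rows), filled where called and open where not called or, within a slide, not testable. Each factor keeps its direction in each row, and Hlf and Nfil3 lose their call with median centring, and Hlf also with the scanner software's ratio.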

How the data were processed

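Lung RNA of 18 mice was measured on 18 two-colour arrays. The authors deposited scanner output with median intensities of both channels, read with Feature Extraction 11.0.1.1 per the labels' processing notes, and a log10 ratio made by the scanner software. The authors also deposited a table of normalized log2 ratios. Here, median intensities were used without background subtraction and normalized by loess in limma 3.58.1 (R 4.3.3). Control spots and spots marked as outliers had no weight, 215 to 307 outliers per array were left out, and 86 probes lacked a value on at least 1 array. A single model over the 4 groups used lmFit and eBayes, and p-values were adjusted by Benjamini-Hochberg over 55681 probes. The paper's MAANOVA test was not run, and limma stands in for it. RefSeq accessions named 27235 probes. The brightest probe stands for a gene. Accession-matched probes of the 4 genes, up to 6 called genes per list, 6 core clock genes, and the 5 most and least like genes were named. The members and lists were chosen with earlier results of these data known. Exact permutation tests were two-sided. The fit was tested on simulated data. The result of 1 gene of the clock activators is not reported here. Alternatives were background correction, the scanner ratio, the authors' table, other normalizations, the slide as block, filters, call rules and each mouse left out. The number of arrays limits the precision.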

Additional observations from a re-analysis of the deposited data

How the results depend on the processing

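No difference of a dose group from vehicle changed sign under any alternative. Between dose groups, where no factor was called, leaving out 1 mouse turned the sign in 18 cases. High against low dose, these values ran from -0.016 to 0.22 for Tef and from -0.076 to 0.36 for Hlf. Medium against low dose, they ran from -0.12 to 0.11 for Tef and from -0.32 to 0.11 for Hlf. High against medium dose, they ran from -0.10 to 0.18 for Dbp and from -0.076 to 0.069 for Nfil3. Median centring gave log2 1.83, 0.93 and -0.57 for Dbp, Tef and Nfil3 at the low dose, 0.99 and -0.64 for Tef and Nfil3 at the medium dose and 1.03 and -0.57 for Hlf and Nfil3 at the high dose, none of these called. The scanner software's ratio gave 0.93 for Tef at the low dose and 1.14 for Hlf at the high dose, and a fit of only the 2 groups compared gave 0.86 for Tef at the low dose with an adjusted p of 0.0623, again not called. The cause was not tested. Within slide 2, values moved to 2.34 for Dbp, 1.18 for Tef and 1.23 for Hlf at the low dose and to -0.59 for Nfil3 at the high dose. Each of these compares 1 exposed mouse with 2 vehicle mice. Within slide 3, Tef moved to 0.50 at the low and 0.44 at the medium dose, each from 1 mouse against 1. With each mouse left out, Tef at the low dose ranged from 0.73 to 0.96, Hlf at the medium dose from 0.62 to 0.90 and Hlf at the high dose from 0.87 to 1.10. Probes called numbered 50 (3 to 93) at the low, 404 (32 to 1969) at the medium and 670 (80 to 2325) at the high dose, lowest with median centring and highest with no fold limit. The between-dose values with a mouse left out were chosen after seeing the data. The likeness lists depended on the dose difference: with group means removed, 1 of the 5 most like genes was shared for Dbp and 0 for each of the other factors, and 1 of the 5 least like was shared for Hlf (Dtx4) and for Nfil3 (Apoa2) and 0 for Dbp and Tef. No paired analysis was possible because the mouse numbers differ between groups.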

Other observations

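With the group means removed, the genes that followed the factors from mouse to mouse were mostly ones that were not called for dose. Nr1d2 kept the highest r with Dbp (0.90), and it was followed by Zer1 (0.89), Cnnm3 (0.86), the autophagy kinase gene Ulk1 (0.84) and Nkd2 (0.84). The lowest were Cmc2 (-0.90), Rras2 (-0.87), Agtpbp1 (-0.85), the proteasome assembly gene Pomp (-0.83) and Lsm6 (-0.82). For Tef the lowest included the proteasome subunit gene Psmb5 (-0.89), and the highest was Smurf2 (0.90), a ubiquitin ligase gene. For Hlf, Nr1d2 was again among the 5 highest (0.84). These are descriptions over 18 arrays among 13448 genes.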
